A study of Mus musculus with 12 samples.

Results

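Liver endothelial cells line the vessels of the liver, and 40 genes that mark them or carry their signals were followed here across 4 groups of mice. The genes were chosen by name: 11 scavenger, lectin and other genes typical of sinusoidal endothelium, 11 receptors, 8 junction and surface genes, 3 genes of platelet adhesion and coagulation, 3 Wnt-pathway ligands and 4 transcription factors. Each gene was read from the probe set whose annotation gave its symbol and no other, or from the brightest such probe set where there were several. All 40 were found among the 22180 genes that could be measured this way. No measured value entered the choice of probe set beyond its mean over all arrays. The genes themselves were chosen with earlier results of these data known, so counts over them carry no p of their own.

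Livers of male mice were profiled on Affymetrix expression arrays, with 3 arrays in each group and 12 in all. Mice were wild type or Lats2-CKO, a line with conditional knockout of the kinase gene Lats2 that the labels also call a knockout, and the labels name neither the deleted part of the gene nor the cells in which it was deleted. From 8 weeks of age each genotype was fed for 9 weeks either normal chow without cholesterol (ND) or a high-cholesterol Paigen diet (HCD) with 1.25% cholesterol, whose other components the labels do not list. The labels call the arrays of a group biological replicates and do not say whether each came from 1 animal, so the p-values measure the spread between these samples. Values are log2 expression, so a difference of 1 is a doubling, and a difference between genotypes is always Lats2-CKO minus wild type. The whole liver was extracted, so fewer endothelial cells and less RNA per endothelial cell cannot be told apart.

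Sinusoidal endothelial cells form the fenestrated wall between blood and hepatocytes. They take up waste molecules from the blood through scavenger receptors such as the stabilins and lectins such as the mannose receptor. They also release angiocrine factors, among them Wnt ligands and R-spondin, which keep the pericentral programme of hepatocytes on, and BMP ligands, which act on hepatocyte iron handling. The adhesion proteins of endothelial junctions, such as PECAM1 and VE-cadherin, are shared by the endothelium of nearly all vessels.

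The arrays correlated with each other at r = 0.967 to 0.995 over the 22180 genes, and their medians over all probe sets lay between 3.42 and 3.49. For 7 of the 12 arrays the nearest array was in another group, so the arrays did not sort by group. The third wild-type ND array had the lowest mean correlation with its own group (r = 0.981, against 0.982 to 0.990 for the others), and its nearest array was the third Lats2-CKO HCD array (r = 0.993). Leaving it out raised the share of all genes called for diet over both genotypes from 1.24% to 7.24%, so results are also given without it. Lats2 itself was 5.15, 5.14 and 5.69 in wild type on ND, 4.37, 4.76 and 4.79 in Lats2-CKO on ND, 5.12, 5.71 and 5.97 in wild type on HCD and 4.62, 4.89 and 4.99 in Lats2-CKO on HCD. The 6 Lats2-CKO arrays all lay below the 6 wild-type arrays, and the difference over both diets was -0.72 ± 0.16 (SE, limma adjusted p = 0.486). Whether its probes lie in the deleted part is not known from the labels. Albumin (Alb), the main secreted protein of hepatocytes, lay near the top of the scale on all arrays, and the endothelial genes Clec4g, Eng and Cdh5 were well above the value of 3.05 below which 30% of all values lay. The dimmest members were Sox18, with a mean of 2.88, and Selp, with a mean of 3.0, both below that value, and Icam2, Wnt9b, Vwf and Wnt2 lay just above it.

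Endothelial genes as a group were lower in Lats2-CKO livers on both diets, by a small amount per gene, and no single member passed the adjusted test. Fitted values were lower in Lats2-CKO for 31 of 40 members on ND, for 37 of 40 on HCD and for 34 of 40 over both diets, against 50%, 48% and 49.3% of all genes tested. The median member difference was -0.28 on ND, -0.28 on HCD and -0.34 over both diets, where the median over all genes was 0.0018. In limma with Benjamini-Hochberg adjustment over all genes, 0 of 40 members were called in any of these comparisons, against a background of 0.0135% of genes on ND, 0% on HCD and 0.00451% over both diets. At an unadjusted p under 0.05, 18 members were lower on ND, 17 on HCD and 22 over both diets, and the shares of all genes lower at that level were 5.45%, 1.94% and 3.77%. No member was higher at that level, against 3.54%, 0.987% and 2.2% of all genes in the same 3 comparisons.

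The genotype comparison on ND and that on HCD use different arrays, though they share 1 estimate of the spread per gene. A lower fitted value on both diets was found for 30 of 40 members (75%), and for 24.5% of all genes. The Pearson correlation of the genotype differences on the 2 diets was 0.428 over the 40 members and 0.0505 over all genes, where genes are not independent replicates. Arrays of the 2 genotypes did not overlap, with Lats2-CKO lower, for 18 members on ND (7.36% of all genes), 13 on HCD (3.37%) and 3 over all 12 arrays (0.126%). With Lats2-CKO higher they did not overlap for 1 member on ND (5.96%), 0 on HCD (4.07%) and 0 over all arrays (0.104%). Without the third wild-type ND array, 32 members were lower on ND with a median of -0.31, and 15 were lower at an unadjusted p under 0.05. In that fit 5.8% of all genes were lower at that level.

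**Figure D1:**
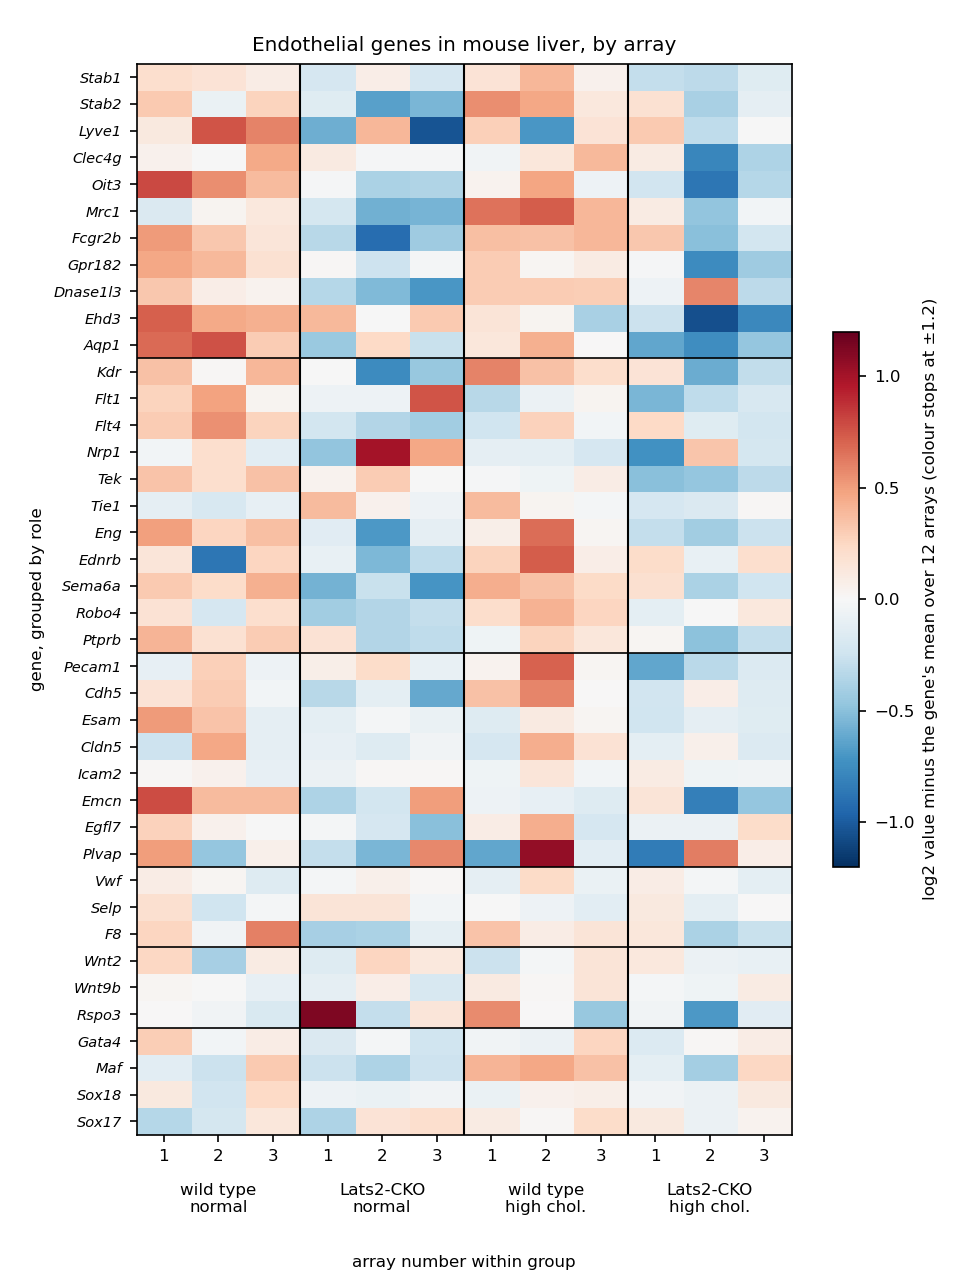
Heat map of the 40 endothelial genes (rows, grouped by role) on the 12 arrays (columns, grouped by genotype and diet), coloured by the log2 value minus the gene's mean over all arrays. The upper rows, the sinusoidal genes and receptors, are mostly above their mean on the 6 wild-type arrays and below it on the 6 Lats2-CKO arrays, and the rows of Wnt2, Wnt9b, Vwf and Selp show no such split.

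The mean of all 40 members, each centred on its own mean over 12 arrays, was 0.23, 0.11 and 0.16 in wild type on ND and 0.11, 0.24 and 0.07 in wild type on HCD. In Lats2-CKO it was -0.12, -0.15 and -0.15 on ND and -0.09, -0.27 and -0.14 on HCD. Every Lats2-CKO array lay below every wild-type array, and the 2 diets overlapped within each genotype.

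Of the groups of members by role, the sinusoidal genes had the median farthest below 0. All 11 were lower in Lats2-CKO over both diets, 10 of them at an unadjusted p under 0.05, with a median of -0.48. Stab2, the hyaluronan scavenger receptor stabilin-2, was 7.88, 7.49 and 7.84 in wild type on ND and 7.42, 6.91 and 7.01 in Lats2-CKO on ND. On HCD it was 8.12, 8.03 and 7.70 in wild type and 7.75, 7.18 and 7.46 in Lats2-CKO. The genotypes were apart on ND and touched on HCD, where the first Lats2-CKO array exceeded the third wild-type array. The difference over both diets was -0.56 ± 0.13 (SE, 6 arrays per genotype, limma adjusted p = 0.565).

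Stab1, encoding stabilin-1, which clears modified lipoproteins and is also made by macrophages, showed the same order with smaller steps. Its values were 6.95, 6.91 and 6.83 in wild type and 6.55, 6.82 and 6.55 in Lats2-CKO on ND, and 6.91, 7.14 and 6.80 in wild type and 6.46, 6.43 and 6.6 in Lats2-CKO on HCD. The genotypes did not overlap on either diet, and the closest approach was on ND, where 6.82 and 6.83 met. The difference was -0.35 ± 0.08 (limma adjusted p = 0.506). Oit3, a secreted protein typical of sinusoidal endothelium in liver, was 7.20, 6.97 and 6.79 in wild type on ND and 6.40, 6.03 and 6.05 in Lats2-CKO. The HCD arrays gave 6.46, 6.88 and 6.35 in wild type and 6.18, 5.55 and 6.07 in Lats2-CKO. Lats2-CKO arrays were below all wild-type arrays on each diet, and over both diets Oit3 was 1.66-fold lower (log2 difference -0.73 ± 0.14, limma adjusted p = 0.427).

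Clec4g, the lectin LSECtin and the brightest of the 4 contrast genes, separated less. It was 10.17, 10.12 and 10.58 in wild type and 10.23, 10.10 and 10.11 in Lats2-CKO on ND, so the groups overlapped. With HCD the values were 10.08, 10.26 and 10.51 in wild type and 10.22, 9.34 and 9.75 in Lats2-CKO, again with overlap, since the first Lats2-CKO array lay among the wild-type arrays. The differences were -0.14 ± 0.21 on ND and -0.51 ± 0.21 on HCD (limma adjusted p = 0.917 and 1.0).

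The mannose receptor gene Mrc1, an endocytic lectin that macrophages also express, was 8.07, 8.28 and 8.37 in wild type and 8.03, 7.67 and 7.68 in Lats2-CKO on ND. On HCD it was 8.89, 8.97 and 8.64 in wild type and 8.34, 7.77 and 8.21 in Lats2-CKO. Both diets showed every Lats2-CKO array below every wild-type array, with differences of -0.45 ± 0.16 on ND and -0.73 ± 0.16 on HCD. Fcgr2b, the inhibitory Fc receptor through which sinusoids clear immune complexes, was 8.70, 8.52 and 8.33 in wild type and 7.86, 7.28 and 7.76 in Lats2-CKO on ND. The HCD arrays gave 8.55, 8.54 and 8.60 in wild type, while Lats2-CKO gave 8.52, 7.69 and 7.97. The first Lats2-CKO HCD array came close to the wild-type arrays, and the other Lats2-CKO arrays were clearly lower. The difference over both diets was -0.69 ± 0.15 for Fcgr2b (limma adjusted p = 0.46) and -0.59 ± 0.12 for Mrc1 (limma adjusted p = 0.427).

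Aqp1, a water channel of endothelium, bile ducts and red cells, had the largest difference of all members over both diets, a 1.70-fold lower level (-0.77 ± 0.13, limma adjusted p = 0.325). It was 7.76, 7.85 and 7.39 in wild type and 6.64, 7.32 and 6.82 in Lats2-CKO on ND, and 7.22, 7.51 and 7.09 in wild type and 6.46, 6.34 and 6.63 in Lats2-CKO on HCD. The genotypes did not overlap on either diet, and levels on HCD lay somewhat below those on ND in both. Gpr182, an atypical receptor of lymphatic and sinusoidal endothelium, was 7.37, 7.29 and 7.08 on ND and 7.21, 6.92 and 7.0 on HCD in wild type. In Lats2-CKO it was 6.91, 6.65 and 6.88 on ND and 6.89, 6.15 and 6.47 on HCD, so the 12 arrays split by genotype, narrowly at the closest point. Lyve1, a hyaluronan receptor, was the least even of the 11: its genotype difference was -0.90 ± 0.36 on ND and 0.08 ± 0.36 on HCD, and the arrays overlapped on both diets.

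Receptors followed, with 9 of 11 lower over both diets, 7 at an unadjusted p under 0.05 and a median of -0.35. Sema6a, a transmembrane semaphorin, had the smallest p of all members. It was 4.77, 4.68 and 4.88 on ND and 4.89, 4.81 and 4.69 on HCD in wild type, and 3.89, 4.19 and 3.75 on ND and 4.65, 4.08 and 4.22 on HCD in Lats2-CKO. All 6 Lats2-CKO arrays were below all 6 wild-type arrays, and the first Lats2-CKO HCD array was the closest. The difference was -0.66 ± 0.11 over both diets (limma adjusted p = 0.311) and -0.83 ± 0.16 on ND (limma adjusted p = 0.147).

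Eng, encoding endoglin, the co-receptor for BMP9 and TGF-beta, also split all 12 arrays by genotype. Wild type gave 8.41, 8.18 and 8.28 on ND and 7.99, 8.59 and 7.94 on HCD, and Lats2-CKO gave 7.78, 7.23 and 7.81 on ND and 7.64, 7.5 and 7.66 on HCD. Endoglin mRNA was 1.55-fold lower in Lats2-CKO (-0.63 ± 0.13, limma adjusted p = 0.46). Kdr, the main VEGF receptor of endothelium, was lower by a like amount (-0.64 ± 0.16, limma adjusted p = 0.565), and its arrays did not overlap on either diet. Its values were 7.36, 7.02 and 7.40 in wild type and 7.0, 6.25 and 6.55 in Lats2-CKO on ND, and 7.60, 7.36 and 7.22 in wild type and 7.17, 6.41 and 6.71 in Lats2-CKO on HCD. The separation of Kdr was narrow on both diets, since the first Lats2-CKO arrays came close to the lowest wild-type arrays.

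The proximal promoters of Stab2 and Eng, 1 scavenger receptor and 1 receptor that were lower in Lats2-CKO, are printed as examples of the sequence just upstream of such members. ETS-family factors act widely in endothelial promoters. Each is the 250 bases before the start of the gene in RefSeq (GRCm38.p6), 5′ to 3′ on the gene's strand, and capitals mark a match to the ETS core letters AGGAAG on either strand (CTTCCT on the other strand). The Stab2 window is chr10:87007943-87008192 on the minus strand and the Eng window is chr2:32646345-32646594 on the plus strand.
Stab2: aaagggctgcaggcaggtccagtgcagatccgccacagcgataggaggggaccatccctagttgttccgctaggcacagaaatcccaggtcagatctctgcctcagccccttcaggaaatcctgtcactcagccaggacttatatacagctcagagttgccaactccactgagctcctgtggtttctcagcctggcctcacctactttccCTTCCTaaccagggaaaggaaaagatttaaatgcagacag
Eng: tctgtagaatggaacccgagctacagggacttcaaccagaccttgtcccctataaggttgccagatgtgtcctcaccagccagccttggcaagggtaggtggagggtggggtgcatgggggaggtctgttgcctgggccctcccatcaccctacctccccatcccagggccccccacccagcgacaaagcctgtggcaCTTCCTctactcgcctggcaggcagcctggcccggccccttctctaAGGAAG
The Stab2 window held 1 match, 40 bases before the start, and the Eng window held 2, at 52 and 6 bases before it. Promoters were matched for 23 of 40 members, and 13 of these held the ETS letters (56.5%), as did 29.2% of the 27025 promoters in the table. The GATA letters AGATAA were in 0 of 23 (10.3% of all promoters), the TEAD letters GGAATG were in 1, that of F8 (4.35%, against 12.6% of all), and the MAF letters TGCTGA were in 5 (21.7%, against 15.8%), all searched on both strands. These are matches of letters, and no factor binding was measured.

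Receptors were lower to unlike degrees, and 2 of 11 were not lower over both diets. Flt4, the VEGF-C receptor, was 6.37, 6.62 and 6.33 in wild type on ND against 5.84, 5.72 and 5.65 in Lats2-CKO. With HCD the values were 5.83, 6.35 and 6.04 in wild type and 6.30, 5.92 and 5.84 in Lats2-CKO, with full overlap. Its genotype difference was therefore -0.70 ± 0.16 on ND and -0.05 ± 0.16 on HCD (limma adjusted p = 0.221 and 1.0). Over both diets Flt4 differed by -0.37 ± 0.11 (limma adjusted p = 0.714). Tie1, the orphan partner of the angiopoietin receptor, was dimmer and went the other way on ND: it was 3.92, 3.84 and 3.93 in wild type and 4.41, 4.09 and 3.98 in Lats2-CKO. On HCD wild type gave 4.41, 4.06 and 4.0 and Lats2-CKO gave 3.83, 3.86 and 4.05. Tie1 was the 1 member whose Lats2-CKO arrays all exceeded the wild-type arrays on ND, and its difference over both diets was 0.01 ± 0.10. Nrp1, a co-receptor for VEGF and semaphorins, was 0.13 ± 0.24 over both diets, and Flt1, the decoy VEGF receptor, was -0.14 ± 0.15.

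**Figure D2:**
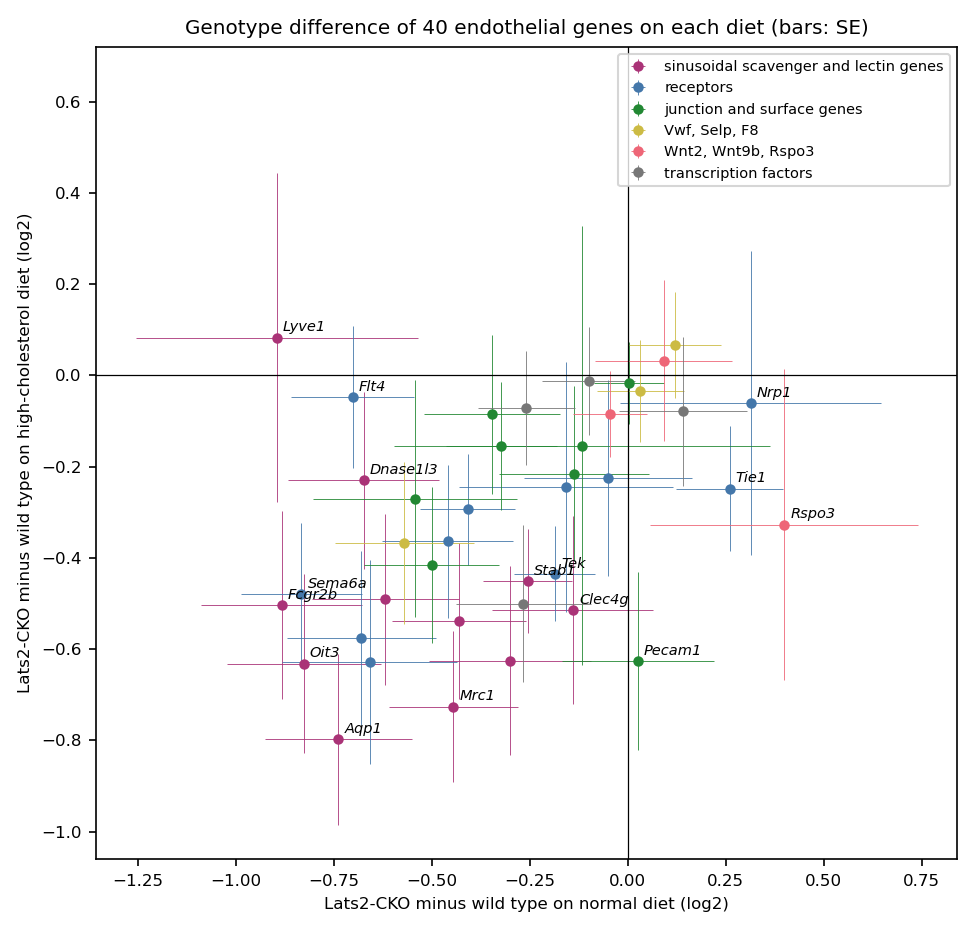
Genotype difference (Lats2-CKO minus wild type, log2) of each of the 40 endothelial genes on ND (x axis) against that on HCD (y axis), coloured by role, with bars of 1 SE. Of the 40 points, 30 lie at the lower left, lower in Lats2-CKO on both diets, and Lyve1 and Flt4 lie far to the left with a difference near 0 on HCD.

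The general endothelial genes of junctions and surface were lower by less, all 8 over both diets with a median of -0.23, and 3 of them at an unadjusted p under 0.05 (Cdh5, Esam and Emcn). Cdh5, encoding VE-cadherin, was 8.13, 8.27 and 7.94 in wild type and 7.64, 7.85 and 7.35 in Lats2-CKO on ND, with no overlap. On HCD it was 8.32, 8.56 and 7.97 in wild type and 7.74, 8.05 and 7.82 in Lats2-CKO, with overlap. The difference over both diets was -0.46 ± 0.12 (limma adjusted p = 0.606).

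Pecam1, the adhesion protein CD31 that leukocytes and platelets also carry, gave unlike genotype differences on the 2 diets. On ND it was 6.22, 6.61 and 6.26 in wild type and 6.39, 6.54 and 6.23 in Lats2-CKO, values that interleaved. The HCD arrays gave 6.37, 7.03 and 6.35 in wild type and 5.70, 6.0 and 6.16 in Lats2-CKO, with every Lats2-CKO array lower. The differences were 0.03 ± 0.19 on ND and -0.63 ± 0.19 on HCD (limma adjusted p = 0.99 and 1.0). Vwf, the platelet-binding von Willebrand factor made mostly by larger vessels, was near the floor of the scale: it was 3.30, 3.24 and 3.06 in wild type and 3.19, 3.28 and 3.23 in Lats2-CKO on ND, and 3.11, 3.45 and 3.14 in wild type and 3.31, 3.19 and 3.10 in Lats2-CKO on HCD. All 4 groups of Vwf values overlapped. Coagulation factor VIII (F8), made in liver by sinusoidal endothelium, differed by -0.47 ± 0.13 over both diets (limma adjusted p = 0.609).

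The sinusoidal genes Stab1, Stab2, Clec4g and Oit3 were set against the general genes Pecam1, Cdh5 and Vwf as means of centred values. The sinusoidal mean was 0.34, 0.16 and 0.30 in wild type and -0.06, -0.24 and -0.28 in Lats2-CKO on ND, and 0.18, 0.37 and 0.13 in wild type and -0.06, -0.59 and -0.24 in Lats2-CKO on HCD. All Lats2-CKO arrays were below all wild-type arrays. The general mean was 0.05, 0.21 and -0.09 in wild type and -0.10, 0.05 and -0.23 in Lats2-CKO on ND, and 0.10, 0.51 and -0.02 in wild type and -0.26, -0.09 and -0.14 in Lats2-CKO on HCD. On ND the genotypes overlapped in the general mean, and on HCD the 3 Lats2-CKO arrays were lower.

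The difference, sinusoidal minus general, was 0.21 ± 0.23 (SD, n = 3) in wild type and -0.10 ± 0.17 in Lats2-CKO on ND, and 0.03 ± 0.15 in wild type and -0.13 ± 0.35 in Lats2-CKO on HCD. The arrays of all 4 groups overlapped in this difference, so the sinusoidal genes were not set apart from the general genes beyond the spread between arrays. With the dim Vwf left out of the general mean, a choice made after its level was seen, the genotype gap in this difference went from -0.31 to -0.22 on ND and from -0.16 to -0.00067 on HCD.

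**Figure D3:**
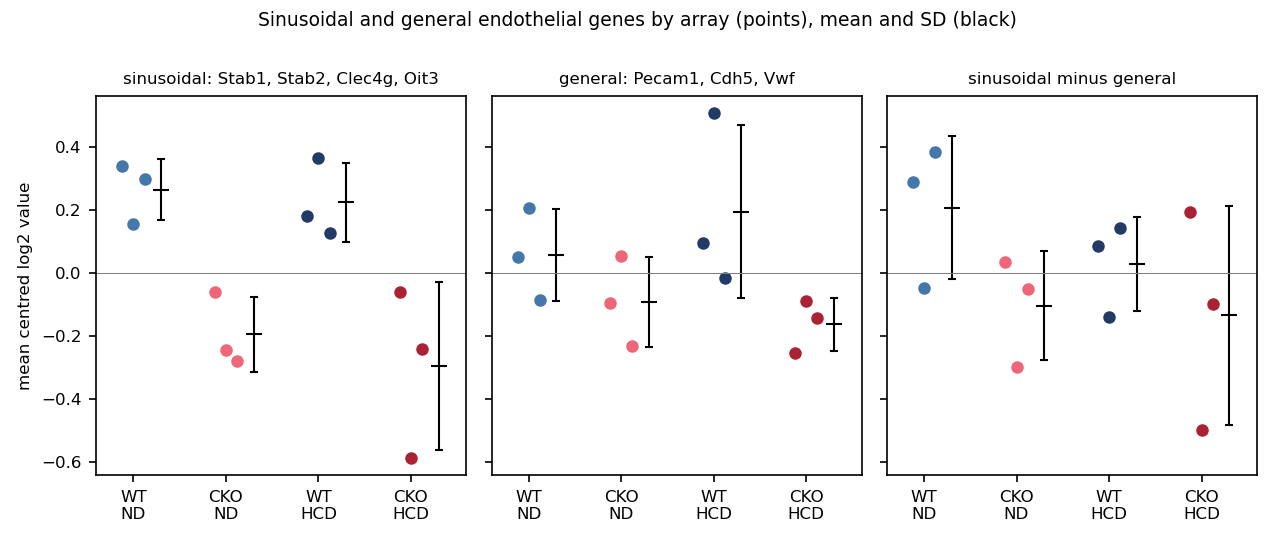
Mean centred log2 value of the 4 sinusoidal genes (left), the 3 general endothelial genes (middle) and their difference (right) on each array (points), with group mean and SD (black). The sinusoidal means of all Lats2-CKO arrays are below those of all wild-type arrays, while the differences of the 4 groups overlap.

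The Wnt-pathway ligands of sinusoidal and central-vein endothelium did not follow the scavenger genes. Wnt2 was 3.57, 2.92 and 3.42 in wild type and 3.16, 3.58 and 3.44 in Lats2-CKO on ND, and 3.06, 3.30 and 3.47 in wild type and 3.44, 3.25 and 3.23 in Lats2-CKO on HCD. Wnt9b was 3.22, 3.19 and 3.09 in wild type and 3.08, 3.27 and 3.0 in Lats2-CKO on ND, and 3.30, 3.21 and 3.35 in wild type and 3.16, 3.14 and 3.29 in Lats2-CKO on HCD. Both ligands were dim on all arrays and the arrays of their groups overlapped.

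Rspo3, a Wnt amplifier of central veins, was brighter and the most variable of the 3 ligands. It was 5.06, 5.01 and 4.87 in wild type and 6.18, 4.76 and 5.19 in Lats2-CKO on ND, and 5.62, 5.06 and 4.60 in wild type and 5.01, 4.37 and 4.92 in Lats2-CKO on HCD. The first Lats2-CKO ND array was high and the groups overlapped, and the difference over both diets was 0.04 ± 0.24 (limma adjusted p = 0.991).

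Of the transcription factors, Maf, which promotes sinusoidal identity and is also active in macrophages, differed by -0.38 ± 0.12 over both diets (limma adjusted p = 0.727), with a median over the 4 factors of -0.11. A second probe set for Maf, dimmer than the one used, gave -1.30, so the 2 probe sets had the same direction and unlike sizes. In that second probe set the second wild-type HCD array stood out at 6.82. The other wild-type arrays ran from 3.53 to 5.12 and the Lats2-CKO arrays from 2.96 to 3.58. Gata4, a factor needed for sinusoidal identity, differed by -0.16 ± 0.09 (adjusted p = 0.848 in limma), and Sox17 and Sox18, endothelial Sox factors, by 0.03 ± 0.12 and -0.06 ± 0.08.

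With diet the endothelial genes went in both directions, and 2 members were called lower, both close to the threshold. Over both genotypes 20 members had higher and 20 lower fitted values on HCD, where 55.3% of all genes were lower, and the median member change was 0.0024. In limma, 2 of 40 members were called lower and 0 higher, against 0.87% of all genes lower, 0.365% higher and 1.24% in either direction. Over all 12 arrays the 2 diets overlapped for all 40 members, while 0.974% of all genes were lower and 0.379% higher without overlap. At an unadjusted p under 0.05, 6 members were lower and 5 higher, against 10.4% and 7.56% of all genes. Within 1 genotype limma called no member: 0 of 40 in wild type (background 0%) and 0 of 40 in Lats2-CKO (background 0.271%). In wild type 4 members were lower and 2 higher at an unadjusted p under 0.05 (6.56% and 4.03% of all genes), and in Lats2-CKO 5 were lower and 3 higher (7.24% and 6.21%). Fitted values were lower on HCD for 19 members in each genotype, against 55.2% of all genes in wild type and 53.6% in Lats2-CKO. The arrays of the 2 diets did not overlap for 3 lower and 4 higher members in wild type (8.81% and 4.97% of all genes) and for 5 lower and 2 higher members in Lats2-CKO (10.5% and 8.98%).

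Tek, the angiopoietin receptor TIE2, fell by 0.42 on the log2 scale over both genotypes (± 0.07 SE, limma adjusted p = 0.0369). It was 6.21, 6.07 and 6.22 in wild type on ND and 5.86, 5.82 and 5.95 on HCD, and in Lats2-CKO it was 5.91, 6.17 and 5.86 on ND and 5.36, 5.40 and 5.56 on HCD. Each HCD group lay below its ND group with no overlap. The changes were -0.29 ± 0.10 in wild type and -0.54 ± 0.10 in Lats2-CKO (limma adjusted p = 0.376 and 0.0617), and their difference was -0.25 ± 0.15 (limma adjusted p = 0.931).

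Ehd3, an endocytic membrane-trafficking protein abundant in sinusoidal endothelium, fell by 0.76 (± 0.15 SE, 1.70-fold, limma adjusted p = 0.0407). It was 8.99, 8.72 and 8.70 in wild type on ND and 8.43, 8.30 and 7.88 on HCD, and 8.66, 8.26 and 8.59 in Lats2-CKO on ND and 8.01, 7.22 and 7.5 on HCD. HCD arrays lay below ND arrays within each genotype, and the third wild-type HCD array lay among the Lats2-CKO HCD arrays. The changes were -0.60 ± 0.21 in wild type and -0.93 ± 0.21 in Lats2-CKO (limma adjusted p = 0.368 and 0.087). Both calls stood close to the threshold: leaving out 1 array ended each of them for 10 of the 12 arrays, with adjusted p up to 0.107 for Tek and 0.121 for Ehd3, and a block for the 2 sets of arrays with unlike medians gave 0.0691 and 0.0779. Without the third wild-type ND array, Tek and Ehd3 were called lower and Mrc1 higher, with limma adjusted p of 0.0164, 0.0175 and 0.0444, and these 3 of 40 stood against 7.24% of all genes called in that fit.

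The promoters of these 2 genes, the members that changed with diet, are shown in the same way as those of Stab2 and Eng. The Tek window is chr4:94739039-94739288 and the Ehd3 window is chr17:73804591-73804840, both on the plus strand of GRCm38.p6, and capitals mark the MAF letters TGCTGA.
Tek: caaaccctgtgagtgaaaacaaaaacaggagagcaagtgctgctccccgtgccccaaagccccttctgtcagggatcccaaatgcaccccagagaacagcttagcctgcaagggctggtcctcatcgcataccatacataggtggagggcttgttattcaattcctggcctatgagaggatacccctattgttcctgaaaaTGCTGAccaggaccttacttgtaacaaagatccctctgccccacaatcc
Ehd3: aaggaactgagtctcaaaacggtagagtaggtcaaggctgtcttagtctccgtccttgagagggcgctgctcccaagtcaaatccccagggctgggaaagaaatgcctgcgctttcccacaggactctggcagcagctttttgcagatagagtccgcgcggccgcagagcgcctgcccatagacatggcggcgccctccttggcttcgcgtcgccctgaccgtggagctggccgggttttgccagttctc
The Tek window held the MAF letters once, 49 bases before the start, and no ETS letters, and the Ehd3 window held none of the 4 motifs searched. The 2 promoters thus shared none of these letters.

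Other members had sizeable diet differences that did not pass the adjusted test in the fit of all 12 arrays at equal weight. Mrc1 had the largest positive difference in wild type, 0.59 ± 0.16 (limma adjusted p = 0.328), and its 3 wild-type HCD arrays, given above, were all above the ND arrays. Over both genotypes its change was 0.45 ± 0.12 (limma adjusted p = 0.0822). Dnase1l3, a secreted nuclease, was 7.02, 6.77 and 6.74 on ND and 7.0, 6.99 and 6.98 on HCD in wild type. In Lats2-CKO it was 6.35, 6.16 and 5.99 on ND and 6.63, 7.28 and 6.38 on HCD, so the Lats2-CKO HCD arrays were all above the Lats2-CKO ND arrays. The change in Lats2-CKO was 0.60 ± 0.19 (limma adjusted p = 0.202). Further members with the larger shifts over both genotypes were Emcn, a sialomucin, at -0.48 ± 0.18, Flt1 at -0.47 ± 0.15, Aqp1 at -0.42 ± 0.13 and, upward, the endothelin receptor Ednrb at 0.47 ± 0.19 and the guidance receptor Robo4 at 0.29 ± 0.09. With arrays weighted by their quality Robo4 was called higher (0.34, limma adjusted p = 0.0401), in a fit that called 6.18% of all genes.

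**Figure D4:**
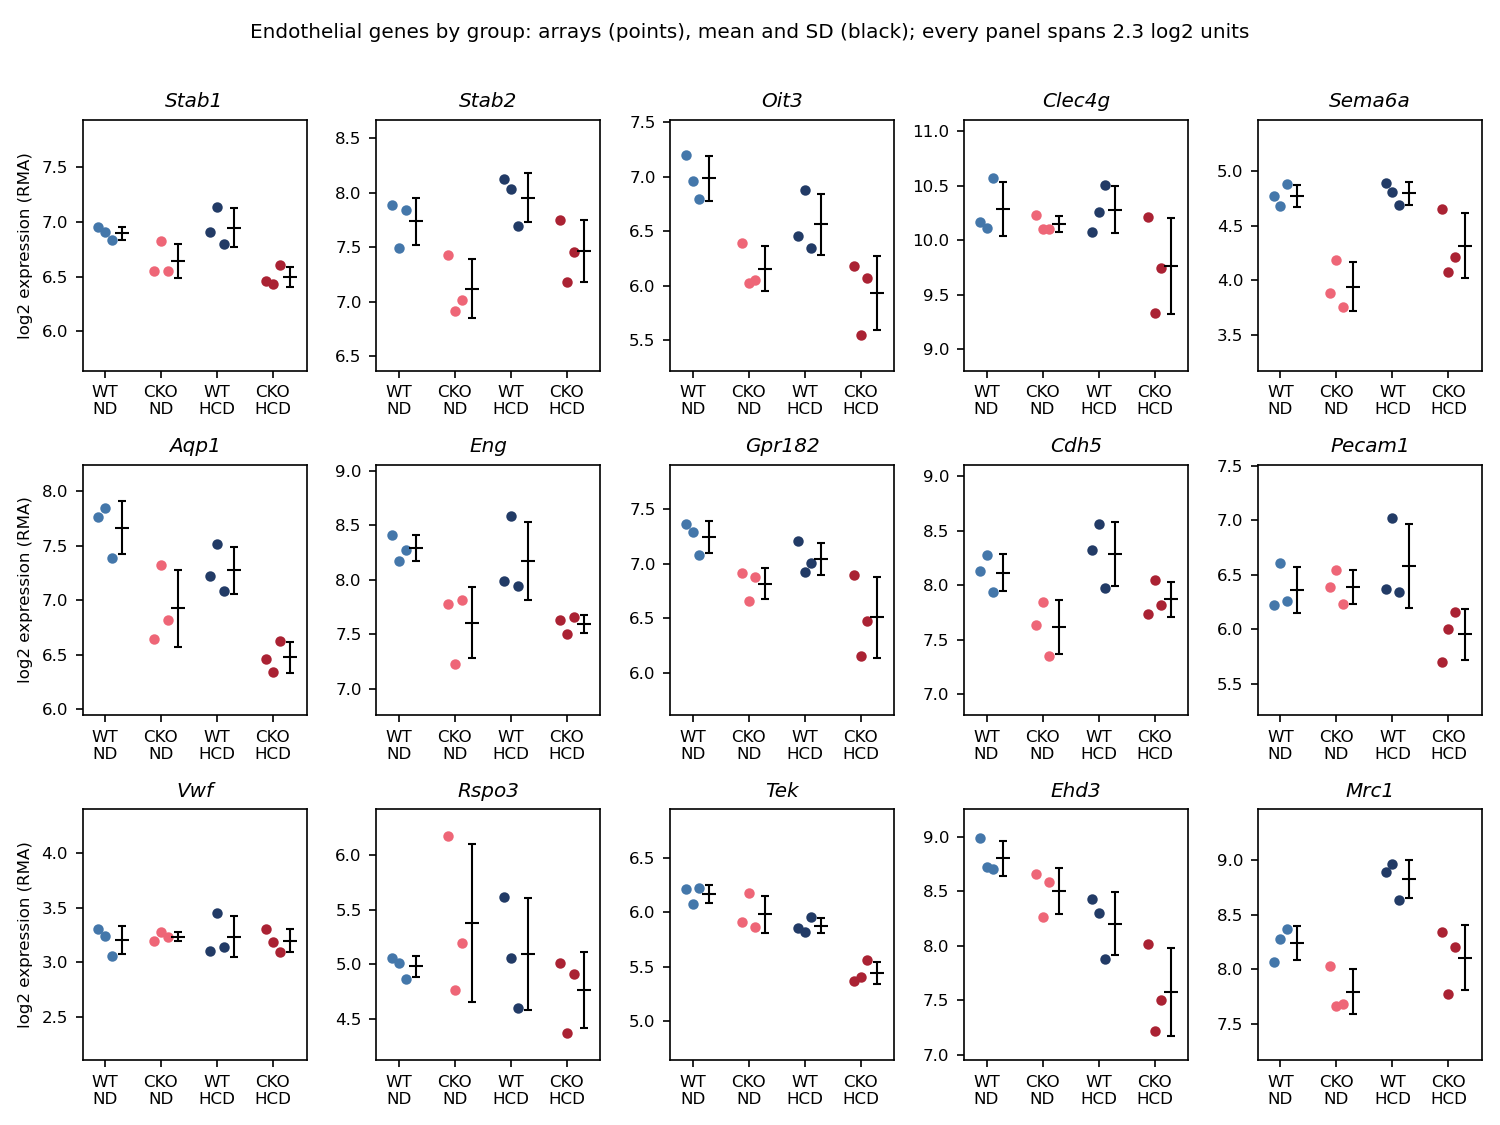
Log2 value of selected endothelial genes on each array (points) with group mean and SD, every panel spanning the same range of 2.3 log2 units. Tek and Ehd3 are lower on HCD within each genotype, Sema6a and Eng are lower on all 6 Lats2-CKO arrays, and the groups of Vwf and Rspo3 overlap.

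The test of whether the diet change differed between genotypes gave 0 of 40 members in limma (background 0.00451% of genes), with a median of -0.04. At an unadjusted p under 0.05 there was 1 member with a positive and 2 with a negative difference, against 5.62% of all genes in either direction. The smallest p among members belonged to Flt4, whose change was -0.37 ± 0.16 in wild type and 0.29 ± 0.16 in Lats2-CKO, a difference of 0.66 ± 0.22 (limma adjusted p = 0.752). Tie1 went from 0.26 ± 0.14 in wild type to -0.25 ± 0.14 in Lats2-CKO, a difference of -0.51 ± 0.19 (limma adjusted p = 0.792). Pecam1 went from 0.22 ± 0.19 to -0.43 ± 0.19, a difference of -0.65 ± 0.27 (limma adjusted p = 0.875).

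Members did not vary as 1 block within groups. Over the 780 pairs of members, the correlation of deviations from the group means on the 12 arrays had a median of 0.0663, with 119 pairs above 0.5 and 40 below -0.5. The highest was Stab2 with Kdr (r = 0.953) and the lowest Kdr with Nrp1 (r = -0.896). Fcgr2b with Gpr182 (r = 0.903), Stab1 with Aqp1 (r = 0.895) and Gpr182 with Ehd3 (r = 0.856) were also high. The arrays share their processing and all cells of the tissue, so these are descriptions.

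Genes of the pathways around the members were read from lists of ligands, targets and related factors. Of 10 VEGF and angiopoietin ligands, 6 were lower in Lats2-CKO over both diets with a median of -0.02, and none was called in any comparison of the 12 arrays. The smallest p in that list was for Vegfb, a ligand of FLT1, whose change on HCD in Lats2-CKO was 1.56 ± 0.28 (limma adjusted p = 0.0511). Without the third wild-type ND array, which is in neither group compared, the change was the same and its limma adjusted p was 0.00361. That fit called 2.11% of all genes in this comparison, against 0.271% with all arrays. Of 10 Notch pathway genes, 1 was called, for diet in Lats2-CKO, where 0.271% of all genes were called. This was Notch1, a receptor with roles in vessel patterning, which rose by 0.88 ± 0.14 on HCD in Lats2-CKO (limma adjusted p = 0.0332). It was 5.76, 5.60 and 5.53 on ND and 6.43, 6.27 and 6.84 on HCD there, without overlap, and its change in wild type was 0.04 ± 0.14. The difference between these changes was 0.85 ± 0.20 (limma adjusted p = 0.71), so it did not pass its own test.

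Of 11 other angiocrine factors, 9 were lower in Lats2-CKO over both diets, 5 at an unadjusted p under 0.05, with a median of -0.35. Ccn1, a matricellular protein and a well-known YAP target, had the largest difference, -2.52 ± 0.49 on ND (limma adjusted p = 0.154). It was 7.07, 6.0 and 5.64 in wild type and 3.67, 3.59 and 3.89 in Lats2-CKO on ND, far apart, and 5.56, 6.12 and 4.44 against 5.17, 3.71 and 4.86 on HCD, with overlap. Bmp2, a ligand by which endothelium drives hepcidin in hepatocytes, differed by -0.41 ± 0.09 over both diets (limma adjusted p = 0.492). All 7 BMP and SMAD targets were lower over both diets with a median of -0.47, 4 of them at an unadjusted p under 0.05. In this comparison 49.3% of all genes were lower, and 3.77% were lower at that level. Most of the difference lay on ND, where 6 of the 7 targets were lower with a median of -0.68, 5 at that level (5.45% of all genes). On HCD 6 of the 7 were lower with a median of -0.07, 1 at that level (1.94% of all genes). Atoh8, a BMP-responsive transcription factor, differed by -1.13 ± 0.18 on ND (limma adjusted p = 0.108) and by 0.15 ± 0.18 on HCD.

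The targets of Wnt signalling in hepatocytes went in both directions by genotype, with 8 of 15 lower over both diets and a median of -0.004, and 7 of 15 lower on ND with a median of 0.01. Without the third wild-type ND array 11 of 15 were lower over both diets with a median of -0.23, and 14 of 15 on ND with a median of -0.15. Limma called none of the 15 by genotype with or without that array, and at an unadjusted p under 0.05 there were 2 over both diets in each case. On HCD, 13 of 15 were lower over both genotypes with a median of -0.85, against 55.3% of all genes lower. Of the 15, 3 were called, against 1.24% of all genes. The transcription factor Tbx3 fell by 1.39, the pericentral ammonium transporter Rhbg fell by 1.79 and the ornithine aminotransferase Oat fell by 1.64 (limma adjusted p = 0.0437, 0.0403 and 0.0431). Rhbg was 6.51, 6.18 and 4.33 in wild type on ND and 4.47, 4.25 and 3.82 on HCD, so the third wild-type ND array lay among the HCD arrays. Without that array 14 of 15 were lower on HCD, the median was -1.07 and 8 were called, in a fit that called 7.24% of all genes. The ligands Wnt2, Wnt9b and Rspo3 differed by -0.06 ± 0.12, 0.10 ± 0.07 and -0.25 ± 0.24 in the same comparison, none of them called.

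Of 14 genes of capillary, arterial or inflamed endothelium, 10 were lower in Lats2-CKO with a median of -0.08. Thbd, the anticoagulant receptor thrombomodulin, was higher on ND by 0.74 ± 0.22 (limma adjusted p = 0.287). Of 10 further endothelial genes, 7 were lower with a median of -0.12. Fli1, an ETS factor of endothelium and blood cells, was lower on every Lats2-CKO array than on any wild-type array, with a difference of -0.62 ± 0.13 (adjusted p = 0.46 in limma).

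Genes of other cell types were read on the same arrays. All 23 macrophage and Kupffer cell genes were lower in Lats2-CKO over both diets, with a median of -0.44 and 9 at an unadjusted p under 0.05, the same direction as the members. Their centred mean was -0.32, -0.07 and -0.04 in wild type and -0.63, -0.73 and -0.60 in Lats2-CKO on ND, and 1.05, 1.11 and 0.05 in wild type and -0.22, 0.12 and 0.28 in Lats2-CKO on HCD. The genotypes were apart on ND and overlapped on HCD. On each diet 21 of the 23 genes had lower fitted values in Lats2-CKO, against 50% of all genes on ND and 48% on HCD. The median was -0.31 on ND and -0.70 on HCD. Without Mrc1, Fcgr2b, Maf, Stab1 and Lyve1, which macrophages also express, 29 of the 35 remaining members were lower over both diets, against 49.3% of all genes. Their median was -0.30, and 18 were lower at an unadjusted p under 0.05, against 3.77% of all genes. This subset was not planned, and it kept Pecam1, which leukocytes also carry.

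Macrophage genes were higher on HCD. All 23 were higher on HCD over both genotypes with a median of 0.78, and Cd5l, C1qb, Clec4f and Cx3cr1 rose by 1.78, 1.08, 0.53 and 0.49 (limma adjusted p = 0.038, 0.0461, 0.0327 and 0.0484). The share of all genes called in this comparison was 1.24%. Without the third wild-type ND array the median was 0.76 and 8 of the 23 were called, in a fit that called 7.24% of all genes. Within groups, the correlation of single members with the macrophage mean ran from -0.532 for Wnt2 to 0.56 for Pecam1, and was 0.338 for Mrc1. For the sinusoidal contrast genes it was 0.457 for Stab1, 0.211 for Stab2, -0.463 for Clec4g and 0.162 for Oit3. Of the general genes besides Pecam1, Cdh5 gave 0.534 and Vwf 0.0404. The part of macrophage content in the genotype difference of the endothelial genes was not tested.

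The other lists had medians nearer 0 by genotype over both diets. Of 14 stellate cell and myofibroblast genes, 10 were lower with a median of -0.12. Of 7 lymphocyte genes, 6 were lower with a median of -0.28. The 10 hepatocyte genes split 5 and 5 with a median of 0.0047, and 2 of 6 cholangiocyte genes and 3 of 4 blood cell genes were lower, with medians of 0.03 and -0.06. On HCD alone, all 14 stellate cell genes and 6 of 7 lymphocyte genes were lower, against 48% of all genes. Their medians there were -0.25 and -0.29, near the member median of -0.28, with 0 genes lower at an unadjusted p under 0.05. The hepatocyte, cholangiocyte and blood cell medians on HCD were -0.02, 0.12 and -0.04. On ND the stellate cell and lymphocyte medians were 0.0049 and -0.09. The 1 called gene in these lists, the hepatocyte drug-metabolising enzyme Cyp3a11, rose by 0.84 on HCD over both genotypes (limma adjusted p = 0.0446), where 1.24% of all genes were called. The genes with the smallest p in the others were Lrat of stellate cells, which differed with diet in Lats2-CKO by -1.32 ± 0.33, Epcam of bile ducts by 0.71 ± 0.25 and, by genotype on HCD, Cd79a of B cells by -0.51 ± 0.25 and Ngp of neutrophils by -1.25 ± 0.48, and none of these 4 was called.

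**Figure D5:**
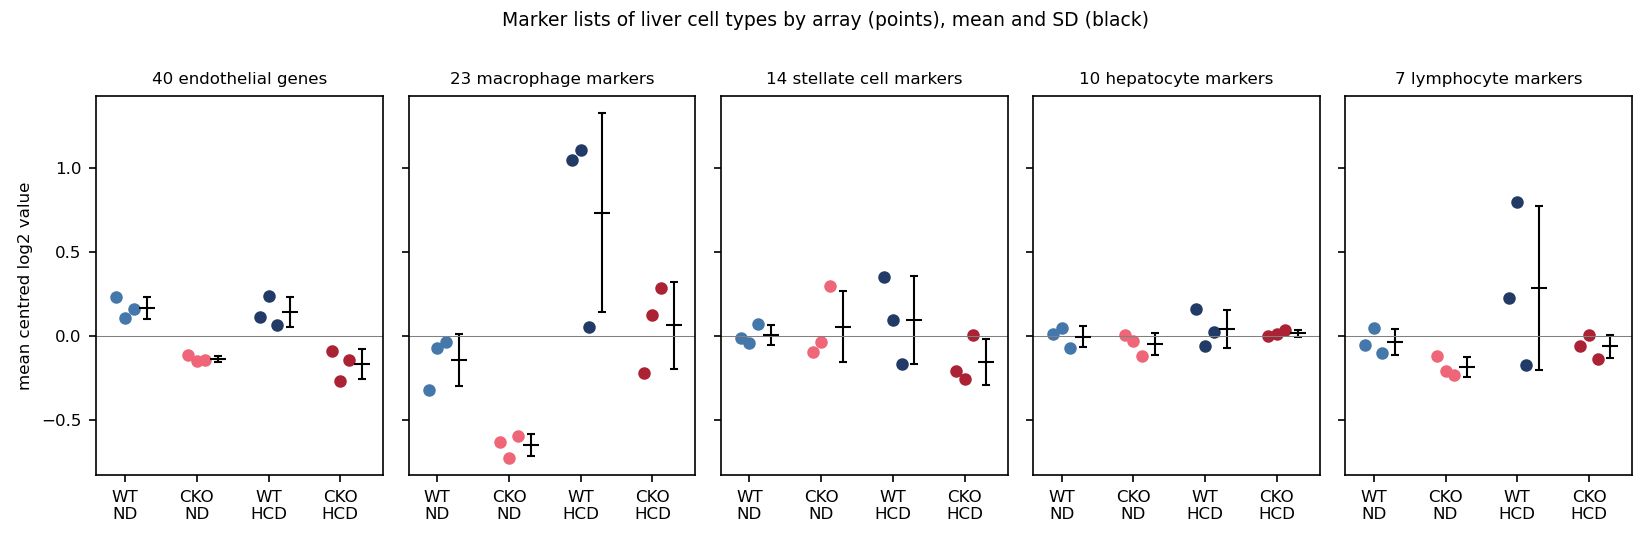
Mean centred log2 value of each list of genes by cell type on each array (points, coloured by group) with group mean and SD (black). The endothelial means of the Lats2-CKO arrays all lie below those of the wild-type arrays, and the hepatocyte means stay near 0. The macrophage means are also lower in Lats2-CKO on ND, and on HCD the genotypes overlap. Within each genotype the macrophage means are higher on HCD than on ND.

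Split at the widest gap between their medians, the arrays formed 2 sets, and each set held both genotypes on both diets. Within the set with higher medians, the member median was -0.35 on ND and -0.22 on HCD, and 32 of 40 members were lower over both diets. In the set with lower medians it was -0.34 on ND and -0.34 on HCD, and 33 of 40 were lower. On HCD the higher set and on ND the lower set held 1 array of each genotype, so those 2 values have no replicate check.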

How the data were processed

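The authors deposited log2 values of each probe set, made by RMA (which corrects background, normalises by quantiles and summarises probes) with Partek 6.6 as the submitters' processing notes name them, and these were used unchanged; the log2 scale was taken from the range of the values, 1.94 to 14.2. The build behind the probe sets was not given in the sources used here. Of 41345 probe sets, 23521 carried 1 gene symbol, 1814 several and 16010 none, and symbols were updated through gene identifiers for 23328. Where a gene had several probe sets, that with the highest mean was taken. Group means were fitted over all 12 arrays with limma 3.58.1 (R 4.3.3) and Benjamini-Hochberg adjustment over 22180 genes, with a threshold of 0.05 for a call. The fit was tested on simulated data with independent noise and with planted changes larger than the differences of the members. That test therefore does not show how well differences of the members' size are found on these arrays.

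The members, lists and comparisons were chosen with earlier results of these data known, so counts over them carry no p of their own. Members were named freely, and values on every array were given for the 7 contrast genes, the 3 Wnt-pathway ligands, called members and the 3 members with the smallest p in each comparison; those of Eng, Kdr, Gpr182, Notch1, Ccn1 and Rhbg were chosen after they were seen. Of the other lists, called genes and the gene with the smallest p were named, and Bmp2 and Thbd were added after their values were seen. Of 186 listed genes, 180 were measured and 6 were not analysed here. Promoters came from RefSeq, and Egfl7, with several entries, was read from the first. The labels do not say whether arrays with the same replicate number were paired, and the fit did not treat them as paired.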

Additional observations from a re-analysis of the deposited data

How the results depend on the processing

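The member medians by genotype kept their direction, and 0 members were called by genotype, in every alternative run: normalisation, filter, probe set rule, prior, weights, array centring, a block for the array sets, fewer groups in the fit and each array left out. Across alternatives that kept all 12 arrays the member median lay between -0.31 and -0.24 on ND, between -0.31 and -0.24 on HCD and between -0.35 and -0.30 over both diets. Within the array sets, of 2 to 6 arrays and with no test, it lay between -0.38 and -0.22. The count of called members moved for diet only. Over both genotypes it was 2, and it was 0 with a block for the array sets, 1 with a trended and robust prior (Ehd3), 3 with array weights (Ehd3 and Tek lower, Robo4 higher) and 4 with that block and without the third wild-type ND array (Esam, Flt1 and Tek lower, Mrc1 higher), and leaving out 1 array gave 0 to 3. The shares of all genes called in these fits were 1.24% in the fit of all arrays, 0.194%, 1.34%, 6.18% and 5.54%, and 7.24% without the third wild-type ND array, where 3 members were called. In Lats2-CKO it was 0, and it was 2 with array weights (Ehd3 and Tek, background 1.24%) and 2 with the set block without the third wild-type ND array (Flt1 and Tek, 2.58%), and 0 to 1 with 1 array left out (Tek without that array, 2.11%). In wild type it was 0, and 1 (Flt1, 1.69%) with the set block and that array left out. With 1 array left out, the members lower in Lats2-CKO on HCD at an unadjusted p under 0.05 were also counted. They numbered 10 without the second Lats2-CKO HCD array (1.87% of all genes) and 11 without the second wild-type HCD array (1.35%). The highest count was 18, without the first Lats2-CKO HCD array (1.26%). In the runs with 1 array left out, the median genotype difference on ND lay between -0.37 and -0.25. The median interaction lay between -0.059 and 0.0887. The genotype difference of Vwf, near 0, changed sign in 7 of these, from -0.0373 to 0.0531. A replicate block by the labels' numbers left 2 members called for diet over both genotypes, Ehd3 and Tek (1.4% of all genes). Deviations of same-numbered arrays correlated at r between 0.0024 and 0.176, with a median of 0.0741 and 7 of 18 pairs over 0.1. For arrays with different numbers the median was -0.0369, with 1 of 36 pairs over 0.1. Among arrays of other groups, the nearest had the same number for 9 of 12 arrays. The first array of every group was in the set with higher medians, and the third array of every group was in the set with lower medians. Pairing by number and a difference between the array sets thus cannot be told apart here, and the labels state neither. The cause of these moves was not tested. With 3 arrays a group and no scanner files used here, the number of arrays and the dimness of Sox18, Selp, Vwf, Wnt2 and Wnt9b limit the precision.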
